A study of Homo sapiens with 3 samples.

Results

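Blocking the type 1 insulin-like growth factor receptor (IGF1R) while its ligand was present was examined in U87Mut cells, by setting the IGF1+OSI906 sample against the serum-free sample. The comparison used the Cy3 channel of 2 of the 3 two-colour Agilent arrays of the series, since U87Mut RNA carried Cy3 on every array and U87WT RNA carried Cy5. A probe entered when its Cy3 spots were well above background on both arrays, which held for 29809 of 58201 probes (51.2%). Of these, 2 had no value because every spot of theirs had been set aside as an outlier, and 21737 could be named through RefSeq transcripts. They stood for 16094 of the 25006 genes named on the array, each represented by its brightest probe. There was 1 array per condition and no dye swap, so no difference below has a replicate check, a standard error or a p-value, and the third array, with IGF1 alone, is given beside the main values.

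U87 is an established human glioblastoma line. U87Mut is U87Mut 5, a single clone selected in G418 after stable transfection with a GFP-tagged IGF1R whose 3 sumoylated lysines were replaced (GFP-IGF1R1025x-1100x-1120x), so that the receptor is held out of the nucleus. U87WT 5, on the other channel, is a single clone with GFP-tagged wild-type IGF1R, which can enter it. Both clones also kept their own receptor. All 3 conditions lasted 24 h without serum: medium alone, 50 nM IGF1, and 50 nM IGF1 with OSI906. The OSI906 dose stands as 0.5 µM in the title of the sample and as 500 µM in its medium label, and the labels and the methods also differ on how long the cells were exposed to it before IGF1 was added. No sample had OSI906 without IGF1, so the inhibitor alone cannot be told apart from the inhibitor with its ligand.

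IGF1 binding turns on the tyrosine kinase of IGF1R, which phosphorylates the adaptors IRS1 and SHC and feeds phosphoinositide 3-kinase (PI3K)-AKT and RAS-ERK signalling. AKT keeps FOXO transcription factors out of the nucleus and, with mTORC1, favours the processing of SREBP, the factor that switches on genes of sterol and fatty acid synthesis. OSI906 (linsitinib) is a small molecule that inhibits the kinases of IGF1R and of the closely related insulin receptor.

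Most genes hardly differed between the samples. The difference, IGF1+OSI906 minus serum-free in log2 units of normalised Cy3 intensity, had a median of -0.01 over the 16094 genes, with quartiles of -0.11 and 0.08, and 90.1% of genes lay within 1.2-fold either way. At 2-fold or more, 10 genes were higher with IGF1+OSI906 (0.0621% of the genes) and 5 were lower (0.0311%). At 1.5-fold or more, 63 genes were higher (0.391%) and 63 were lower (0.391%). The 2-fold counts moved with the processing, to 149 higher and 34 lower with the scanner software's own processed signal. A difference below 0 was found for 53.1% of genes and one above 0 for 46.5%. For scale, the 281 probes spotted at least 5 times on each array gave a median SD of the difference over spots of 0.07, which covers spotting within an array and not culture, labelling or array.

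The plot of difference against level shows how few genes left the central band.

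**Figure D1:**
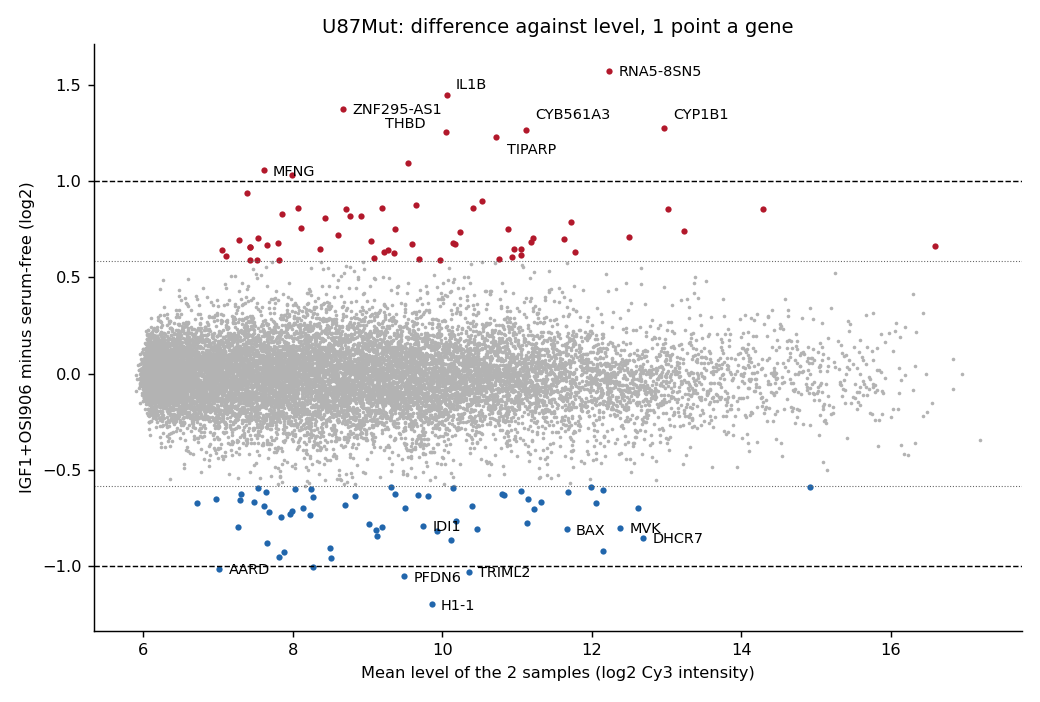
Each point is a gene, with the mean log2 Cy3 level of both U87Mut samples on the x axis and IGF1+OSI906 minus serum-free, in log2, on the y axis. Dashed lines mark 2-fold, dotted lines 1.5-fold, red points are genes at least 1.5-fold higher and blue points genes at least 1.5-fold lower. The grey band of all other genes is centred near 0 at every level, and IL1B, CYP1B1, TIPARP and RNA5-8SN5 stand above it.

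The 10 adenovirus E1A spike-in controls, which do not come from the cells, were also higher on the IGF1+OSI906 array after normalization, by 0.28 to 0.76 with a median of 0.62. Quantile normalization sets the whole distribution of each channel equal, so the values below are relative to the bulk of genes in the same sample. Had the spike-ins been used as the scale, the median of all genes would have been -0.63, and the medians of all 38 gene lists examined would have been below 0. Whether the total RNA differed between samples was not tested.

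The labelled cells could be checked only in part. CDKN2A, known to be deleted in U87, was well above background by 1 probe, at 7.67 in serum-free medium and 7.58 with IGF1+OSI906. Its other probe was not well above background on either array, and what the first probe reports was not tested. Vimentin (VIM) stood at 14.99 and 15.51 in the serum-free and IGF1+OSI906 samples, and CD44, a mesenchymal glioma marker, at 14.34 and 14.22. GFAP and SOX2, which mark astrocytes and neural stem cells, were not well above background on either array. Of the other lineages, 3 of 8 epithelial, 2 of 6 blood, 3 of 6 endothelial and 2 of 5 oligodendrocyte markers were well above background, the brightest at 7.26, where the dimmest member probe had a mean level of 5.91. Of 7 neuronal markers, 5 were well above background. Their summed level was 10.56 and 10.66, and 2 of them were above 0 and 3 below, with a median difference of -0.04. The splicing factor RBFOX3 was at 8.78 and 9.38 by 1 probe, and its other probe was not well above background on either array.

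The target itself was measured first. The IGF1R probe gave 8.71 in serum-free medium, 8.71 with IGF1 and 8.41 with IGF1+OSI906, a difference of -0.30. The position of this probe was not available, so whether it reports the clone's own IGF1R, the transgene or both is not known. INSR, the insulin receptor, went the other way, at 8.52, 8.42 and 8.82 (0.30). IRS1, the main adaptor of both receptors, was at 8.13 in serum-free medium, 7.51 with IGF1 and 8.48 with IGF1+OSI906, 0.34 above serum-free and with both of its probes above 0. Thus the IGF1+OSI906 sample had less IGF1R signal and more INSR and IRS1 signal than the serum-free one, each by under 1.5-fold. Over the 20 measured genes of receptors, adaptors and PI3K-AKT signalling, the median was -0.03, and none reached 1.5-fold.

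Readouts of the pathways downstream of the receptor were mixed. The 21 measured genes that FOXO factors are known to induce had a median of -0.02, with 10 above 0 and 11 below. TXNIP, an inhibitor of glucose uptake, was the exception among them, at 10.63, 10.22 and 11.28 in serum-free medium, IGF1 and IGF1+OSI906, a difference of 0.65. RBL2, a pocket protein, was the lowest of the list at -0.33. The 20 ERK-induced genes had a median of 0.05: FOSL1 was higher by 0.41 and CCND1, cyclin D1, by 0.32, while the ERK phosphatase DUSP5 was lower by 0.35. CCND1 stood at 10.03, 10.41 and 10.36, so that it lay above serum-free on both arrays with IGF1.

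Among ligands and binding proteins, 11 of 14 genes were measured and IGF2 was not well above background. Stanniocalcin 2 (STC2), which holds back the protease PAPPA that frees IGF from its binding proteins, was at 8.02 in serum-free medium, 7.26 with IGF1 and 8.83 with IGF1+OSI906. This was 1.75-fold over serum-free, and it is also a target of ATF4 and a hypoxia gene. IGFBP3, the main carrier of IGF in blood, was lower by 0.28. PAPPA itself was higher by 0.24. The list as a whole had a median of -0.06.

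Genes of cholesterol synthesis and uptake were lower with IGF1+OSI906 almost throughout. All 25 genes of the list were measured, 24 were below 0, and the median was -0.53 against -0.01 over all genes. None reached 2-fold, and 7 were at least 1.5-fold lower (background 0.391% of all genes). Cholesterol is built from acetyl-CoA through mevalonate, squalene and lanosterol, and nearly every enzyme of the route is switched on by SREBP2 when sterols are scarce.

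The entry steps led the list. HMGCS1, which condenses the first intermediate, was at 8.60 in serum-free medium, 8.11 with IGF1 and 7.86 with IGF1+OSI906, 1.66-fold below serum-free. MVK, mevalonate kinase, was at 12.78, 12.45 and 11.98 (-0.80). For both enzymes the IGF1 sample lay between the other samples. IDI1, which makes the activated isoprenoid unit, was at 10.14, 9.65 and 9.35, lower by 0.79. ACAT2, which joins acetyl-CoA units ahead of HMGCS1, was at 10.34, 9.21 and 9.52, so that it was lowest with IGF1 alone. PMVK and MVD, the kinase and decarboxylase between MVK and IDI1, differed less, by -0.10 and -0.26. FDPS and FDFT1, which lead on to squalene, were lower by 0.42 and 0.48.

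The steps after squalene were lower as well. SQLE, squalene epoxidase, was at 11.11, 10.74 and 10.48 in serum-free medium, IGF1 and IGF1+OSI906, 1.54-fold below serum-free. DHCR7, which makes cholesterol from its last precursor in one of the pathway's branches, had the largest difference of the list, at 13.11, 12.46 and 12.26, 1.8-fold lower. EBP, a sterol isomerase, was at 12.97, 12.54 and 12.27 (-0.70). These brightly measured enzymes lay far above background in every sample. LSS, CYP51A1, MSMO1 and HSD17B7 were lower by 0.53 to 0.54 by their brightest probes, and NSDHL by 0.33. The other LSS probe gave -0.36, and the other HSD17B7 probes gave -0.48, -0.18 and -0.04. TM7SF2 and SC5D, both close to background, stood at -0.01 and 0.11, and SC5D was the gene of the list above 0.

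Genes of control and transport were lower by less than the leading enzymes. SREBF2, which encodes SREBP2, was at 9.89 in serum-free medium, 9.55 with IGF1 and 9.52 with IGF1+OSI906 (-0.37). INSIG1, which retains SREBP in the endoplasmic reticulum, was at 12.25, 12.01 and 12.05 (-0.20). STARD4, a sterol carrier, was at 8.49, 7.89 and 8.02 (-0.47). DHCR7, ACAT2, MVK and IDI1 were named by a rule on size and the other genes of the route for their roles, after their values had been seen. MMAB, a vitamin B12 enzyme gene that neighbours MVK, was noticed in the same way, at 8.48, 8.12 and 7.79 (-0.70).

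**Figure D2:**
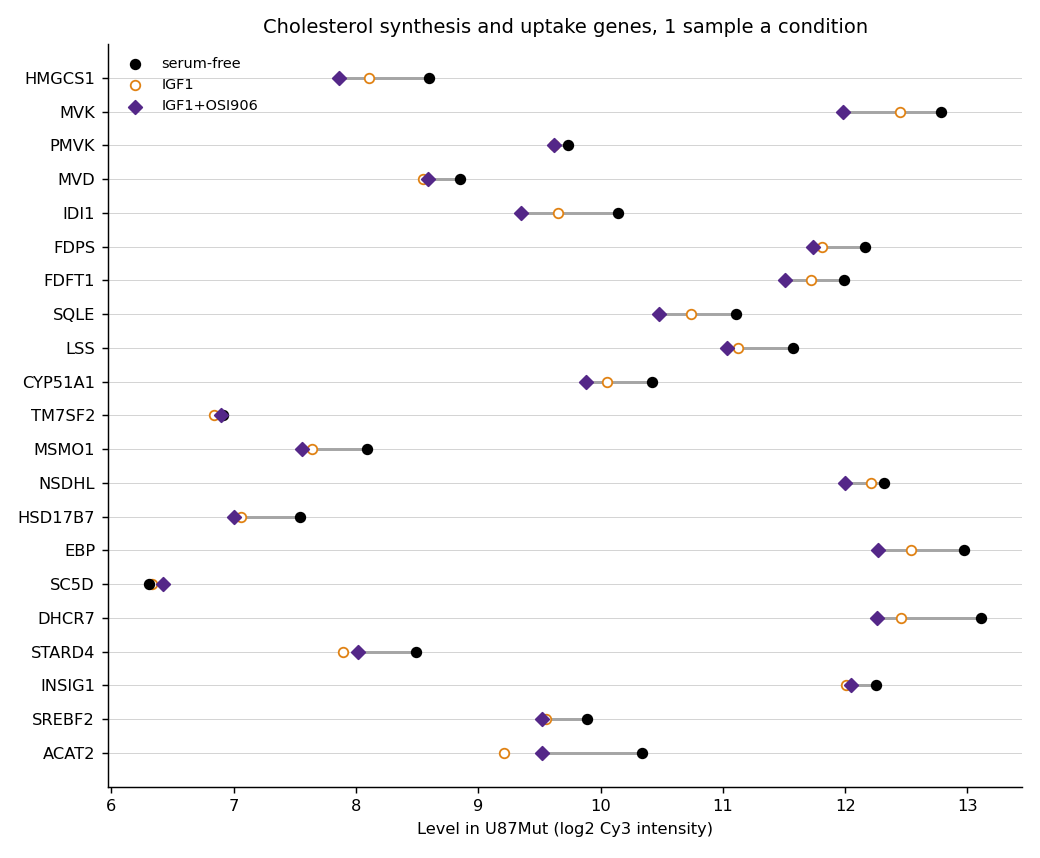
Levels of 21 of the 25 cholesterol synthesis and uptake genes in U87Mut, in log2 Cy3 intensity on the x axis, with 1 gene a row. Black circles are the serum-free sample, open orange circles IGF1 and purple diamonds IGF1+OSI906, and grey bars join the samples compared. The purple diamond lies left of the black circle for every gene drawn but SC5D, and for HMGCS1, MVK, IDI1, SQLE, EBP and DHCR7 the IGF1 sample lies between them.

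With OSI906 added, these genes did not stand at their serum-free level. Both comparisons that follow share the serum-free sample. The list median was -0.36 for IGF1 minus serum-free and -0.53 for IGF1+OSI906 minus serum-free. In 18 of the 25 genes the IGF1+OSI906 sample was below both other U87Mut samples, but the share of all genes with that order was not counted. In U87WT, read from the other channel of the same arrays, the list median for IGF1+OSI906 minus serum-free was -0.31, with 20 of 25 genes below 0. The U87WT median over all genes was -0.02, and the U87WT share of all genes below 0 was not counted. U87WT values were read for the same probes, which had been filtered on Cy3 alone. The difference between the clones was not tested.

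Since these genes lay together, their promoters were read for motifs in the 250 bases before the start site (RefSeq, build GRCh38.p14). Of the 25 genes, 18 had an entry. The SRE-like motif TCACNCCAC, a form of the site that SREBP binds, was found on either strand in 0.883% of all 35116 promoter entries and in 1 of the 18 genes, SREBF2. The letters CCAAT, the box bound by NF-Y, a factor known to act beside SREBP at sterol genes, were found in 32.0% of all entries and in 16 of the 18 genes. CCAAT was added after the values had been seen. The core GCGTG was found in as many, 16 of the 18, against 32.2% of all entries. SRE-like with G at its open base holds GCGTG, and otherwise these motifs do not share letters. FOXO (GTAAACA), ATF4 (TGATGNAAN), CRE (TGACGTCA) and AP-1 (TGANTCA) motifs were found in none of the 18, against 2.98%, 3.13%, 1.65% and 6.57% of all entries, and ACGTG, the core of the hypoxia element, in 4 against 18.5%. Background shares count promoter entries and list figures count genes, so they are not in the same unit. A match is a run of letters and not evidence of binding. Stretches of 100 bases are shown for SREBF2, with its SRE-like letters in capitals, and for 5 enzymes at least 1.5-fold lower, with CCAAT or its complement ATTGG in capitals:
SREBF2, chr22:41832926-41833025, plus strand: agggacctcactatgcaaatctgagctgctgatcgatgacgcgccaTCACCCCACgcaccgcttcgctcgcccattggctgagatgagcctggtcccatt
HMGCS1, chr5:43313461-43313560, minus strand: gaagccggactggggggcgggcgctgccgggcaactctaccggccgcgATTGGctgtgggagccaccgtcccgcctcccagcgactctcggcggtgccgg
IDI1, chr10:1048922-1049021, minus strand: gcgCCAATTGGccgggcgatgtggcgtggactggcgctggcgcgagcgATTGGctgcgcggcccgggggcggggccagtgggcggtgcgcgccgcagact
DHCR7, chr11:71448394-71448493, minus strand: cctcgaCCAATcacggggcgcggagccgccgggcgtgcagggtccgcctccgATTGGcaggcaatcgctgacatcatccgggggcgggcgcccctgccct
MVK, chr12:109573694-109573793, plus strand: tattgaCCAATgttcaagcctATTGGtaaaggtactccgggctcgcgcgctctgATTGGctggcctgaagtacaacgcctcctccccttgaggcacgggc
EBP, chrX:48521708-48521807, plus strand: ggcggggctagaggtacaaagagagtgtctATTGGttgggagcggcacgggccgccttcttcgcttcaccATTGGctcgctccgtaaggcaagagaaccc

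All stretches run 5′ to 3′ along the gene. IDI1 and MVK each had 3 marked boxes in the stretch, DHCR7 and EBP 2, and HMGCS1 1. In IDI1 the run CCAATTGG counts as 2 boxes that overlap, 1 on each strand.

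Fatty acid and glycerolipid synthesis, which SREBP1 drives, was lower by less. Of 28 genes 27 were measured, 19 were below 0, none was 1.5-fold lower, and the median was -0.18. FASN, fatty acid synthase, was at 10.45 in serum-free medium, 9.94 with IGF1 and 9.86 with IGF1+OSI906, a difference of -0.58. LPIN1, a phosphatidate phosphatase, was at 11.53, 10.86 and 11.04 (-0.49), and its 3 probes gave -0.49 to -0.22. ELOVL6, an elongase, was lower by 0.46 and ACACA, which makes malonyl-CoA, by 0.43, but the second ACACA probe gave -0.03. SREBF1, which encodes SREBP1, differed by -0.07. DGAT1 was higher by 0.20 and PCYT1A, of phosphatidylcholine synthesis, lower by 0.22.

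ABCA1, the exporter of cholesterol and a target of the sterol sensor LXR, went against the synthesis genes. It was at 10.86 in serum-free medium, 10.74 with IGF1 and 11.57 with IGF1+OSI906, and both of its probes, at 0.66 and 0.70, were past 1.5-fold. The 9 measured genes of the LXR list, ABCA1 included, had a median of -0.04, and LPCAT3 was at -0.19.

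Cytokine and chemokine genes were higher with IGF1+OSI906 relative to the bulk of genes, a direction that flips to a list median of -0.25 on the spike-in scale. Of 25 genes of the list, 20 were measured, 19 were above 0 and the median was 0.37, against -0.01 over all genes and 46.5% of genes above 0. IL1B was past 2-fold (background 0.0621%) and 4 genes, IL1B among them, were at least 1.5-fold higher (0.391%). These genes are switched on by NF-κB and AP-1 and encode secreted signals that call and activate leukocytes. Most lay low on the array, with a median level of 7.21 in serum-free medium.

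IL1B, the cytokine interleukin-1 beta, was at 9.33 in serum-free medium, 8.41 with IGF1 and 10.78 with IGF1+OSI906, 2.73-fold over serum-free. CSF3, which drives neutrophil production, was at 8.25, 7.97 and 8.97 (0.72). IL1A, the partner of IL1B at the same receptor, was at 6.74, 6.91 and 7.38 (0.64). In each of these genes the IGF1+OSI906 sample was the highest of the U87Mut samples. CXCL2, a neutrophil chemokine, was at 10.75, 11.00 and 11.36, and its probes gave 0.61 and 0.79. CXCL1 was at 8.28, 7.25 and 8.79 (0.51), lowest with IGF1 alone. CXCL1, CXCL2 and CXCL3 are close relatives, and signal passing between their probes was not tested.

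LIF, of the interleukin-6 family, was at 8.55, 8.21 and 9.08 (0.53), while its other probe gave -0.04. IL6 differed by 0.22, PTGS2, the inducible cyclooxygenase, by 0.35 and NFKBIA, the feedback inhibitor of NF-κB, by 0.44. The receptors IL1R1 and TNFRSF1B were noticed after their values had been seen. By their brightest probes they were at 7.18 and 7.89, and at 7.09 and 7.75, in serum-free medium and with IGF1+OSI906. The other probe of IL1R1 gave a difference of 0.20, against 0.71 by the brightest, and that of TNFRSF1B 0.75. IL11 was the gene of the list below 0, at -0.06. CXCL6, CCL7, CCL20, CSF2 and IL33 were not well above background on both arrays.

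The IGF1+OSI906 sample was the highest of the U87Mut samples for 17 of the 20 genes, with no count of that order over all genes. Side by side, the list median was -0.14 for IGF1 minus serum-free, 0.37 for IGF1+OSI906 minus serum-free in U87Mut and 1.15 for the latter in U87WT, where all 20 were above 0. Over all genes the U87WT median was -0.02, and the U87WT share above 0 was not counted. In U87WT the IL1B difference was 2.76 and that of CSF3 2.70. The size of the difference between clones was not tested, and the clones' arrays are the same, so the channels are not independent measurements. On the spike-in scale IL1B in U87Mut was at 0.83.

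AP-1 letters (TGANTCA) were found before the start of 5 of the 22 genes of this list with a promoter entry, namely CCL7, CXCL8, IL11, IL1A and TNFAIP6, against 6.57% of all entries. The matches in IL1A and CXCL8, which were 0.64 and 0.43 higher, are shown in capitals:
IL1A, chr2:112784403-112784502, minus strand: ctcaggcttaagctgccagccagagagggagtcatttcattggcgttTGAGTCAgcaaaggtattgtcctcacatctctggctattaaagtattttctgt
CXCL8, chr4:73740385-73740484, plus strand: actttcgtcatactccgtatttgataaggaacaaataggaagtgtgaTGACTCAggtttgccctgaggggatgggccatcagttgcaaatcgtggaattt

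IL11 and TNFAIP6, with differences of -0.06 and 0.06, held the same letters, and whether the motif goes with the size of the difference was not tested.

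Genes of AP-1 and other immediate early factors had a wide spread. The 21 measured had a median of 0.06, with an upper quartile of 0.41 and no gene under -0.31. FOSL2, a FOS-family subunit of AP-1, was at 8.99 in serum-free medium, 9.31 with IGF1 and 9.74 with IGF1+OSI906 (0.75). ATF3, a stress-induced partner of JUN, was at 11.46, 11.78 and 12.09 by its brightest probe, and its 4 probes ran from -0.25 to 0.71. JUN was at 11.17, 11.35 and 11.57 (0.40), DUSP1 was higher by 0.48 and EGR1 by 0.46. FOSL2, ATF3 and JUN each had IGF1 alone between the other samples.

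Genes controlled by the aryl hydrocarbon receptor (AHR) held a pair of the largest differences. AHR is a ligand-activated transcription factor that turns on enzymes clearing foreign and endogenous ring compounds, and TIPARP is its feedback repressor. CYP1B1, a cytochrome P450, was at 12.33 in serum-free medium, 11.98 with IGF1 and 13.60 with IGF1+OSI906, 2.42-fold over serum-free, and its second probe gave 1.34. TIPARP was at 10.11, 10.03 and 11.33, 2.34-fold over serum-free. Neither was higher with IGF1 alone. U87WT gave nearly the same sizes, 1.21 for CYP1B1 and 1.25 for TIPARP.

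The rest of the list was less marked. Of 9 genes 7 were measured, with a median of 0.20 (-0.42 on the spike-in scale, where CYP1B1 stood at 0.65 and TIPARP at 0.61) and 6 above 0. SERPINB2, also an AP-1 gene, was at 6.02, 6.18 and 6.50 (0.48). NQO1 differed by 0.20. ALDH3A1 was not well above background on both arrays, and AHRR had no named probe. CYP1A1, the usual marker of AHR activity, was at 6.17, 6.10 and 6.30, close to background. AHR itself was lower by 0.52 by its brightest probe, from 10.89 to 10.37, and by 0.05 by its other probe. The core GCGTG, part of the element that AHR and ARNT bind and chosen after the values had been seen, was found in TIPARP, and in AHRR and CYP1A1, of the 7 genes with a promoter entry. The TIPARP match (complement CACGC) is in capitals, with no reading drawn from letters that 32.2% of entries hold:
TIPARP, chr3:156674400-156674499, plus strand: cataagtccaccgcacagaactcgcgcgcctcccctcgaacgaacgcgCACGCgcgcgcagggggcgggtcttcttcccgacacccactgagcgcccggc

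**Figure D3:**
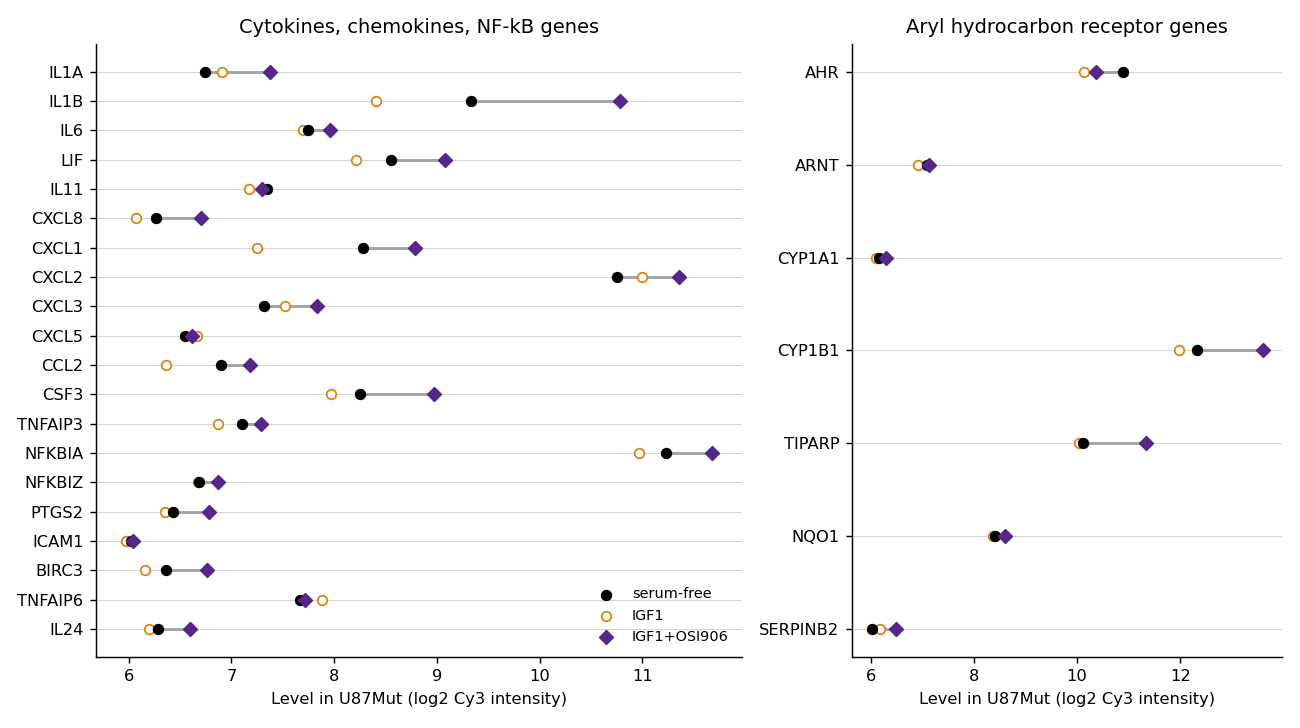
Levels in U87Mut, in log2 Cy3 intensity on the x axis, of the 20 measured cytokine, chemokine and NF-κB genes (left) and the 7 measured genes of the aryl hydrocarbon receptor list (right), 1 sample a condition. Symbols are as in the plot of cholesterol genes, with black circles for serum-free, open orange circles for IGF1 and purple diamonds for IGF1+OSI906. The long bars belong to IL1B, CYP1B1 and TIPARP, and CYP1A1 sits near background.

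Genes of the cell cycle were lower by small, shared amounts. For DNA replication, 35 of 36 genes were measured, 33 were below 0 (53.1% of all genes were), and the median was -0.20. CDC45, of the replicative helicase, was at 10.44 in serum-free medium, 10.20 with IGF1 and 9.85 with IGF1+OSI906, and was the gene of the list at least 1.5-fold lower. RRM2, of ribonucleotide reductase, was at 7.29, 6.74 and 6.84 (-0.44). TYMS, thymidylate synthase, was at 12.26, 11.96 and 11.84 (-0.41), and MCM6, of the helicase ring, at 11.65, 11.51 and 11.24 (-0.41). For 30 of the 35 genes the IGF1+OSI906 sample was below both other samples, an order that was not counted over all genes.

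Mitotic genes gave much the same picture, with 32 of 36 below 0 and a median of -0.19. CENPF, a kinetochore protein, was at 11.47, 11.16 and 10.82 (-0.65) by its brightest probe and at 0.06 by its other probe. TPX2, a spindle assembly factor, was lower by 0.41, NUSAP1 by 0.39 and ANLN, of the cleavage furrow, by 0.37. With IGF1 alone the list medians were 0.03 for replication and -0.02 for mitosis, against -0.20 and -0.19 with IGF1+OSI906. In U87WT the IGF1+OSI906 medians were -0.08 and -0.29. In bulk RNA, fewer dividing cells and less of these transcripts per cell cannot be told apart.

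Inhibitors and cyclins of G1 were measured for 7 of 10 genes, with a median of 0.11. CDKN1A (p21) was at 7.97, 7.74 and 8.22 (0.25), CDKN1B (p27) at 8.70, 8.67 and 8.94 (0.23, with its other probe at -0.15), and CCNE2 was lower by 0.36. The linker histone H1-1 had the lowest difference of any gene, at 10.46, 9.50 and 9.26, 2.29-fold lower than serum-free, and H1-5 was at 9.41, 9.06 and 8.63 (-0.78). The core histone H4C11, noticed after its values had been seen, was at 11.58, 11.43 and 10.87 (-0.70). The 16 measured replication-dependent histones of the list, which holds H1-5 but not H1-1 or H4C11, had a median of -0.06. LMNB1, lamin B1, noticed after its values had been seen, was at 8.33, 8.17 and 7.60.

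Glycolysis and lactate genes were lower in most cases. Of 25 genes 24 were measured, 20 were below 0 and the median was -0.14. SLC2A1, the glucose transporter GLUT1, was at 10.04 in serum-free medium, 10.49 with IGF1 and 9.56 with IGF1+OSI906, so that IGF1 lay 0.45 above and IGF1+OSI906 0.48 below serum-free. SLC16A3, the lactate exporter MCT4, had the same order, at 11.09, 11.33 and 10.57 (-0.52). PFKFB4, which sets the level of the glycolytic activator fructose 2,6-bisphosphate, was at 9.25, 9.21 and 8.84 (-0.41), and ENO2, an enolase, was lower by 0.46. The IGF1+OSI906 sample was below both other samples for 16 of the 24 genes, again without a count over all genes.

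HK2, hexokinase 2, went the other way, at 11.28, 11.69 and 11.98 by its brightest probe (0.70), though its other probe gave 0.07. LDHA and LDHB, the subunits of lactate dehydrogenase, differed by -0.12 and -0.14 by their brightest probes and by -0.31 and 0.13 by their other probes. GAPDH differed by 0.05. In U87WT, SLC2A1 and SLC16A3 differed by -0.05 and 0.01. The median of the list in U87WT was -0.06.

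**Figure D4:**
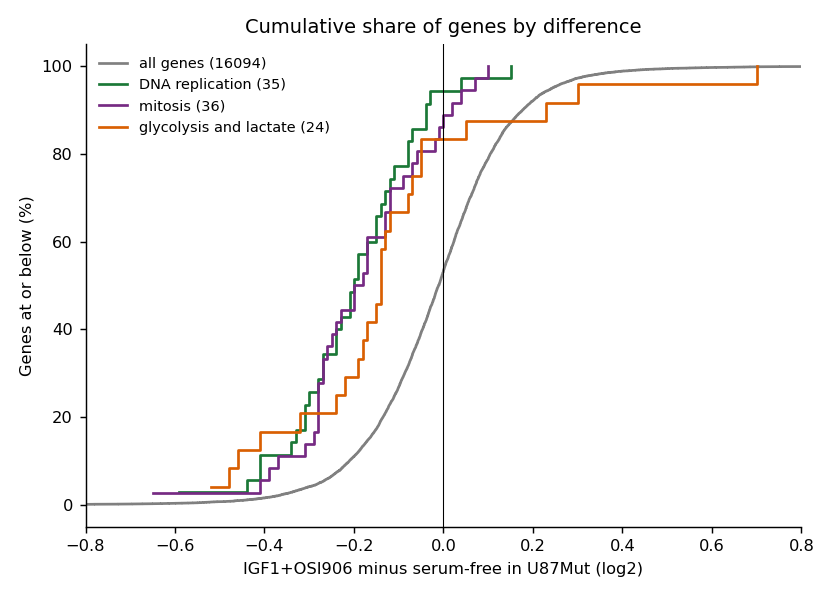
Cumulative share of genes, in percent, at or below each difference (IGF1+OSI906 minus serum-free in U87Mut, log2) for all 16094 genes in grey, and for the replication, mitosis and glycolysis lists in green, purple and orange. The curves of the 3 lists lie left of the grey curve over most of their range, and the orange curve ends in a step at 0.70, which is HK2.

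Several other lists had medians close to that of all genes. Oxidative phosphorylation (44 genes) had a median of 0.00 with 22 genes above 0 and 22 below, the TCA cycle (22 genes) a median of 0.00, fatty acid oxidation (21 genes) 0.03 and cytosolic ribosomal proteins (47 genes) -0.02. ATF4 targets (27 genes) had a median of 0.00 in U87Mut and 0.33 in U87WT. Small medians above the upper quartile of all genes (0.08) were found for a few lists. The unfolded protein response (18 genes) had a median of 0.11 with 15 above 0, and HSPA5, the chaperone BiP, was at 11.72, 12.33 and 11.94. Metallothioneins (7 genes) had a median of 0.12, with MT1F at 0.74 and MT2A at -0.34, and their probes may share signal. Lysosome genes (24) had a median of 0.11. GRN, progranulin, was 1.5-fold lower among them, at 15.21, 14.39 and 14.62, and CTSB, cathepsin B, was at -0.36.

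**Figure D5:**
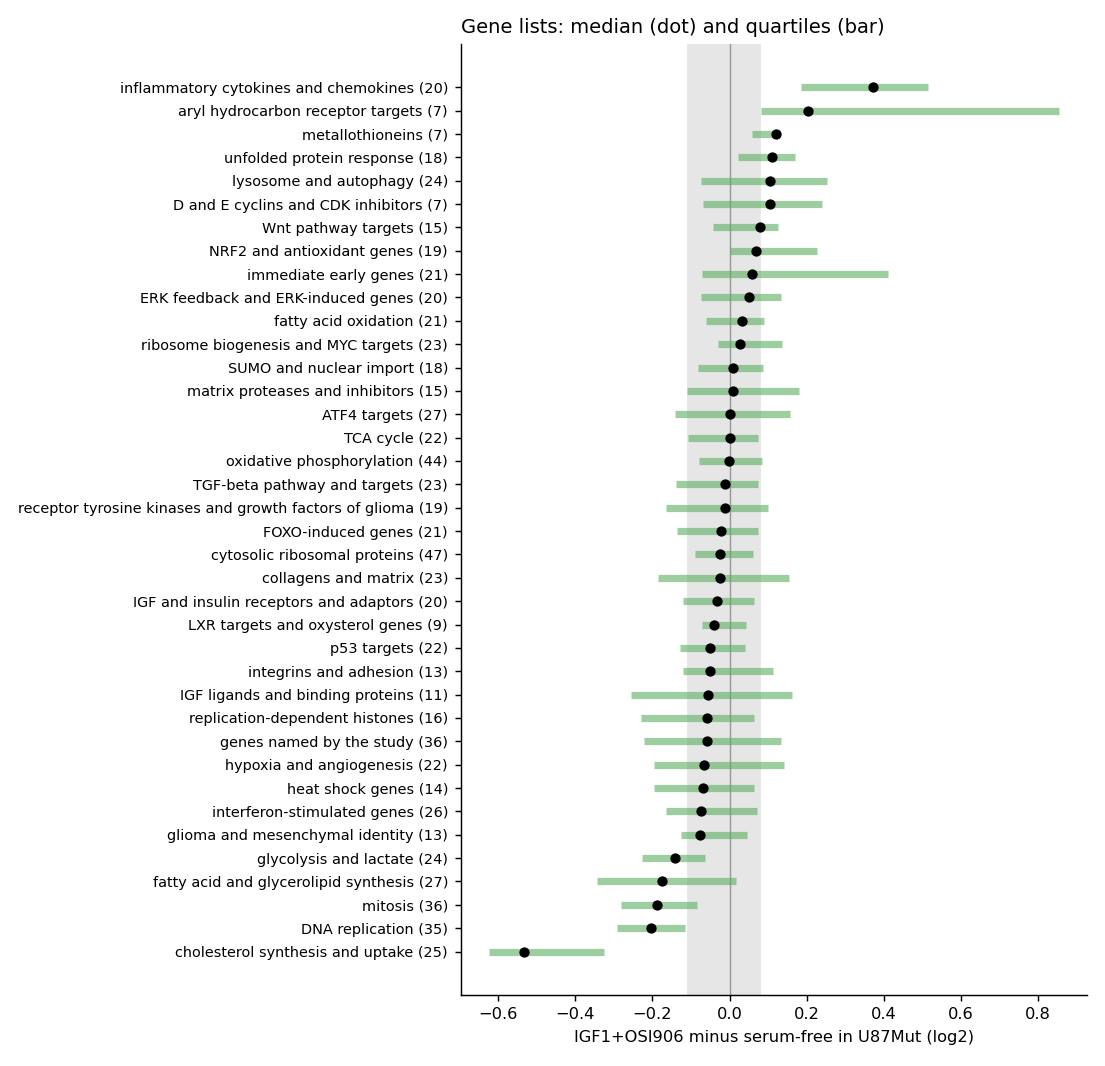
Median (black dot) and quartiles (green bar) of IGF1+OSI906 minus serum-free in U87Mut, in log2, for each gene list, with the number of measured genes in brackets. The grey strip spans the quartiles of all 16094 genes, from -0.11 to 0.08. The cholesterol list lies lowest, at -0.53, and the cytokine list highest, at 0.37, with both bars outside the strip.

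Genes with the largest differences were taken as the 15 highest and 15 lowest whose probes all had the same sign. Of the 15 highest, 13 rested on 1 probe and 3 were not protein-coding, and of the 15 lowest 14 rested on 1 probe. The highest was RNA5-8SN5, the 5.8S ribosomal RNA, at 11.45 in serum-free medium, 11.16 with IGF1 and 13.02 with IGF1+OSI906, 2.97-fold over serum-free. RNA18SN5 was at 12.87, 13.46 and 13.60 (0.74) and RN7SL1, of the signal recognition particle, at 13.86, 15.17 and 14.71 (0.86). RN7SK, another abundant short RNA, was at 14.76 and 14.75. Ribosomal RNA carries no long poly(A) tail, and RNA quality could not be read from these files, so its part in these values was not tested.

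Among the protein-coding genes, THBD, thrombomodulin, a surface anticoagulant, was at 9.42, 10.00 and 10.68, 2.38-fold over serum-free. CYB561A3, a lysosomal iron reductase, was at 10.48, 10.21 and 11.75 (1.27). MFNG, which adds sugars to NOTCH, was at 7.08, 7.20 and 8.14 (1.05), and CADM1, an adhesion protein, at 7.47, 7.21 and 8.51 (1.03), with its other probe at 0.41. ZNF295-AS1, a long noncoding RNA, was at 7.99, 7.51 and 9.36 (1.38). All of these were highest in the IGF1+OSI906 sample. SSH1, a cofilin phosphatase, was higher by 1.09 by 1 probe and by 0.00 by the other, and so fell outside the rule.

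The remaining highest genes were SLC16A6, BEX1, SNORD105B, SNX9, GGTLC1 and VASN, from 0.86 to 0.94. GGTLC1 has near-identical copies, and GGTLC2 and GGTLC3, at 0.69 and 0.75, may report the same transcripts. RUNX2, a bone and invasion factor noticed after its values had been seen, was at 8.28, 8.48 and 9.13, with its probes at 0.39 and 0.86.

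Of the 5 genes at least 2-fold lower, H1-1 is given above. PFDN6, a subunit of the prefoldin chaperone, was at 10.01, 10.12 and 8.96, 2.07-fold lower. TRIML2 was at 10.87, 10.58 and 9.85 (-1.03), and AARD at 7.52, 7.36 and 6.51 (-1.01). OLFML2A was lower by 1.01 by 1 probe and at 0.06 by the other, and fell outside the rule. NPM3, a histone chaperone related to nucleophosmin, was at 10.55, 10.65 and 9.69 (-0.86). UTS2R, the urotensin receptor, was at 12.61, 13.16 and 11.69, highest with IGF1. BAX, which opens mitochondria in apoptosis, was at 12.06, 11.94 and 11.26 (-0.81), and at -0.15 by its other probe. The p53 target list, BAX included, had a median of -0.05 over 22 genes, and BAX was the gene of it at least 1.5-fold lower.

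The remaining lowest genes were ZC3H7B, LOC101927499, TMEM65, IL21R, SLC39A7 and ADRA1B, from -0.95 to -0.81, with DHCR7 and ACAT2 of the sterol route among the 15. Over all 126 genes past 1.5-fold, 38 had more than 1 member probe, and in 26 of these every probe had the same sign.

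Further genes past or near 1.5-fold came from other lists. EREG, a ligand of the epidermal growth factor receptor, was at 8.95, 8.99 and 9.59 (0.64). DKK1, a Wnt antagonist, was at 7.30, 7.00 and 6.65 (-0.65). ADAMTS5, an aggrecanase, was at 9.03, 9.24 and 9.66 (0.63), and MMP14, a membrane collagenase, at 10.80, 10.87 and 11.36 (0.56), whereas SERPINE2, a protease inhibitor, was lower by 0.54. The matrix protease list had a median of 0.01 over 15 genes. COL6A2, a collagen, was higher by 0.58 by its brightest probe and by 0.11 by the other.

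Genes singled out by the study for metabolism and growth, a list that was chosen on these samples, had a median of -0.06 over 36 measured genes, and none reached 2-fold. SLC2A14, a glucose transporter, was at -0.43, FABP5, a fatty acid carrier, at -0.30, FADS3, of the desaturase family, at 0.34 and LDHAL6A at 0.43. CPT1A, which admits fatty acids to mitochondria, differed by 0.07, MDH1 by 0.15 and PCK2 by 0.14. SOD2 was at 12.46, 11.88 and 12.48, and CH25H, which makes an oxysterol, at 10.72, 10.09 and 10.68, so that both were lower with IGF1 alone and level with serum-free when OSI906 was added. SPTLC3, of sphingolipid synthesis, was at 8.62, 7.73 and 8.55 by its brightest probe, while its other probes, at 7.48, 7.65 and 7.56 and at 7.18, 7.11 and 7.18, differed by 0.17 and -0.07 with IGF1 alone. TGFB1 was at 9.29, 9.10 and 9.28.

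Probes well above background on 1 array only gave bounds in place of differences. There were 1492 such probes with IGF1+OSI906 and 2557 in serum-free medium. The largest bounds were LINC00469, at least 1.5-fold higher with IGF1+OSI906, and CA9, carbonic anhydrase 9, a hypoxia marker, at least 1.28-fold lower. MTAP, a gene that U87 is known to have lost, also appeared, at least 1.46-fold higher by 1 of its 3 probes, with the others not well above background on either array. Each bound sets the level on the bright array against the lowest signal among probes well above background on the dim array, or the probe's own signal where that was higher.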

How the data were processed

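RNA of 3 conditions was hybridised to human gene expression arrays of Agilent (SurePrint G3, version v3), 1 per condition, with U87Mut in Cy3 and U87WT in Cy5. The deposited files hold scanner intensity values per spot, made by the authors with Feature Extraction 12.0.3.1. Their design build is hg19, and no spot was saturated. The authors' processed table was not used, and the submitters' notes name limma without a version. Here Cy3 and Cy5 median signals and local backgrounds were corrected with limma 3.58.1 (R 4.3.3; normexp, offset 50, fitted without spots flagged as outliers), put on a log2 scale and quantile-normalized over the 6 channels. Spots of a probe were averaged. Probes were named through unversioned RefSeq transcript accessions, 34892 of 58201 with success. Well above background was met by 55.6%, 51.5% and 53.8% of Cy3 probes in the serum-free, IGF1 and IGF1+OSI906 samples, and array number limits the precision.

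Differences are the IGF1+OSI906 minus the serum-free level. With 1 array per condition no test was made, and lists are described by counts and medians beside those of all genes. The members and gene lists (43) were chosen with earlier results of these data known. The genes named were the 15 highest and 15 lowest with all probes of the same sign, up to 4 further members of each list by size, the study's own genes and the largest bounds, besides those said to be chosen after their values were seen. A simulation put 1.5-fold and 2-fold changes into single spots, without culture, labelling or array variation. The steps gave the right sign to the changed spots, and smaller changes were not simulated. Alternatives covered background, normalization, filter, fold limit and probe summary. Some genes of the lists are counted in the list values and not reported singly here.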

Additional observations from a re-analysis of the deposited data

Results flagged for a closer look

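Over the genes of the fixed lists and the genes named above, 14 were flagged because IGF1+OSI906 and serum-free differed by at least 0.2 in log2 in opposite directions in the clones. The share of all genes that meet this rule was not counted. The SD of the difference over all genes was 0.17 in U87Mut and 0.24 in U87WT, so differences near 0.2 are not unusual in either clone. Each value comes from 1 array pair and 1 dye, so the difference between clones was not tested, and clone and dye cannot be told apart. Lower in U87Mut and higher in U87WT were the following. ADM, the vasodilator adrenomedullin, differed by -0.29 in U87Mut and by 0.42 in U87WT. BDNF, a neurotrophin, differed by -0.35 in U87Mut and by 0.27 in U87WT. DDIT4, an mTORC1 inhibitor, differed by -0.22 in U87Mut and by 0.72 in U87WT. GPT2, an alanine aminotransferase, differed by -0.31 in U87Mut and by 0.33 in U87WT. KLF4, a transcription factor, differed by -0.28 in U87Mut and by 0.29 in U87WT. MT2A, a metallothionein, differed by -0.34 in U87Mut and by 0.27 in U87WT. MVD, a mevalonate pathway enzyme, differed by -0.26 in U87Mut and by 0.29 in U87WT. PNPLA3, a lipid droplet enzyme, differed by -0.20 in U87Mut and by 0.24 in U87WT.

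Higher in U87Mut and lower in U87WT were the following. CTNNB1, beta-catenin, differed by 0.21 in U87Mut and by -0.20 in U87WT. HSP90B1, an endoplasmic reticulum chaperone, differed by 0.30 in U87Mut and by -0.25 in U87WT. HSPA8, a cytosolic chaperone, differed by 0.26 in U87Mut and by -0.79 in U87WT. MMP14, a membrane collagenase, differed by 0.56 in U87Mut and by -0.48 in U87WT. ODC1, of polyamine synthesis, differed by 0.28 in U87Mut and by -0.42 in U87WT. RPL35, a ribosomal protein, differed by 0.21 in U87Mut and by -0.32 in U87WT. BDNF, CTNNB1, HSP90B1 and RPL35 had more than 1 probe, and their other probes gave smaller differences or, for RPL35, the opposite sign in U87Mut.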

How the results depend on the processing

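No paired analysis was possible because there was 1 array per condition, and for the same reason no replicate could be left out. The mean in place of the median spot signal was not run because the files hold no such column. The 52 named genes past 1.5-fold kept their sign in 727 of 728 values over the 14 alternatives that give values per gene. The exception was CXCL2, at -0.005 on the spike-in scale. These genes were picked for their size on the same arrays that every alternative reprocesses, so the kept signs are no replicate check. The cause of each move was not tested.

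Counts at 2-fold, 11 probes higher and 6 lower, and 10 genes higher and 5 lower, moved most. With a normexp offset of 20, 10 probes and 9 genes were lower. With an offset of 0, 37 probes and 21 genes were higher and 38 probes and 25 genes lower. With normexp fitted on all spots, 2 probes and 1 gene were lower. Without background correction, 12 probes and 11 genes were lower. The share of calls that were higher, 66.7% of genes, was then 50.0%, and it was 55.0%, 45.7% and 87.5% in the 3 settings before. With the scanner software's processed signal, 345 probes and 149 genes were higher and 70 probes and 34 genes lower, so that 81.4% of called genes were higher. At a 1.5-fold limit, 91 probes and 63 genes were higher and 79 probes and 63 genes lower. With spike-in scaling, added after seeing the data, 0 probes and 0 genes were higher and 426 probes and 305 genes lower.

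The cytokine list median was 0.49, 0.60, 0.29, 0.53, 0.62, 0.48 and 0.28 with an offset of 20, an offset of 0, the fit on all spots, no correction, processed signal, scaling to the 75th percentile and all probes. The aryl hydrocarbon receptor list median was 0.39, 0.63 and 0.32 with an offset of 0, processed signal and the 75th percentile. The cholesterol list median was -0.45 with the fit on all spots. With 75th percentile scaling, the medians were -0.28 for replication, -0.28 for fatty acid synthesis, -0.24 for glycolysis and 0.049 for FOXO-induced genes. On the spike-in scale the medians were -1.15 for cholesterol, -0.25 for cytokines and -0.42 for the aryl hydrocarbon receptor list, both reversed, -0.82 for replication, -0.81 for mitosis, -0.80 for fatty acid synthesis, -0.76 for glycolysis and -0.64 for FOXO-induced genes. Centring blocks of the array, also added after seeing the data, moved none of these medians beyond the spot-to-spot SD of 0.07.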
